A study of Mus musculus with 4 samples.

Results

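Hepatic gene expression was followed from 24 h to 48 h after acetaminophen (APAP), across all 27027 entries of the count table, by setting the APAP pool at 48 h against the APAP pool at 24 h. Male C57BL/6J mice (C57BL/6 in the sample labels) aged 9 to 12 weeks had been fasted for 10 h overnight, were injected intraperitoneally with APAP at 300 mg/kg and then had free access to food, and livers were perfused before sampling. Control mice were fasted and injected in the same way with NaCl solution as vehicle and were sampled at the same 24 h and 48 h. Hepatic RNA was pooled in equal shares from 7 APAP mice or 6 control mice per time point, and each pool gave 1 library of 3′ mRNA ends (MACE, massive analysis of cDNA ends), so that all 4 libraries of the series stand for 1 pool each. The series therefore holds no replicate libraries, no p-value across genes can be had, and all intervals below cover counting error alone, since the spread among the mice of a pool is not visible.

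The APAP libraries held 5698778 counted reads (24 h) and 4938164 (48 h), and the control libraries 4859661 (24 h) and 5191990 (48 h). Reads were divided by size factors (median of ratios over 16338 genes, 1.17 and 1.07 for the APAP pools, 0.880 and 0.933 for the control pools), and the resulting normalised read counts are the scale of every level below. A fold is the ratio of normalised reads at 48 h over 24 h, with counts of 3 reads or fewer set to 3, and was evaluated where a gene had a mean of at least 20 normalised reads over both pools of the pair. That left 10150 genes in the APAP pair and 9894 in the control pair. The tissue label held in all 4 pools, since the read count of Alb, serum albumin made by hepatocytes, was 207153 normalised reads 24 h and 238641 reads 48 h after APAP, and 237292 and 241302 after vehicle. Genes encoded by mitochondrial DNA took 9.25% and 9.58% of the reads of the APAP pools and 11% and 11.2% of those of the control pools.

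In the liver, APAP is oxidised by cytochrome P450 enzymes of hepatocytes around the central vein to a reactive metabolite that depletes glutathione, damages mitochondria and kills those cells by necrosis. Surviving hepatocytes respond with heat shock, antioxidant and AP-1 programmes, while injured tissue is cleared by infiltrating and resident phagocytes. Clearance of debris, deposition of a provisional matrix and return of metabolic enzymes mark the period in which such an injury resolves, and the 24 h to 48 h interval was sampled by the study as the onset of this phase. Because these are bulk samples, fewer cells of a type and less RNA per cell cannot be told apart.

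In the APAP pair, 160 genes were at least 2-fold higher at 48 h (1.58% of those evaluated) and 208 were at least 2-fold lower (2.05%). Of all 10150 evaluated genes 4898 had a fold above 1 and 5252 a fold below 1, the background for such counts in the lists below. Over the same interval 124 genes were higher between the control pools (1.25%) and 110 lower (1.11%). At the more demanding 5-fold, 1 gene was higher (0.00985%) and 15 were lower (0.148%) in the APAP pair, against 3 (0.0303%) and 6 (0.0606%) in the control pair. Scaling by library totals in place of size factors moved the median log2 fold of all evaluated genes from -0.01 to 0.06 and turned the split from 160 higher and 208 lower into 243 higher and 173 lower. Genes next to the 2-fold limit differed from it by little, Lyz1 lying inside at 2.01-fold higher with 17 reads at 24 h and 31 at 48 h, and Mapk8ip3 lying outside at 1.9985 times lower with 33 and 15 reads.

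**Figure D1:**
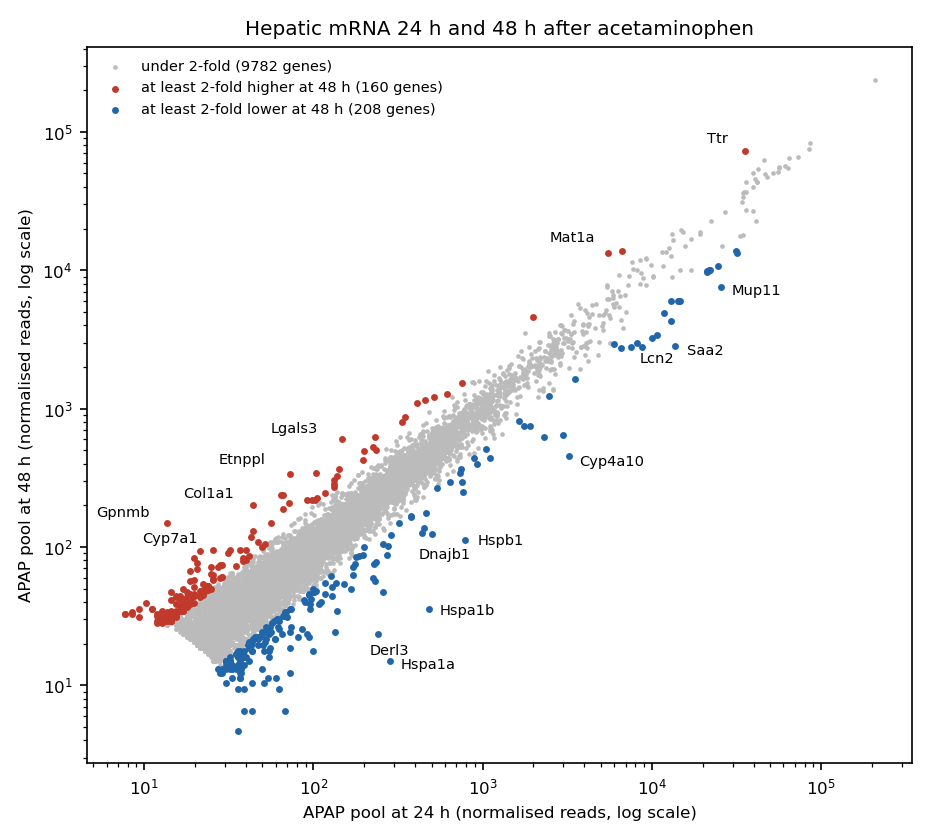
Normalised reads of the 10150 evaluated genes in the APAP pool at 24 h (horizontal, log scale) against the APAP pool at 48 h (vertical, log scale), 1 point per gene, with genes at least 2-fold higher at 48 h in red and at least 2-fold lower in blue. Hspa1a, Hspa1b and Derl3 lie far below the grey band and Gpnmb farthest above it.

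Most of the lower genes had been above both control pools at 24 h. Of the 208 lower genes, 162 lay above both control pools at 24 h, and at 48 h 47 of these were still above both, 34 lay between them and 81 lay below both. Another 23 lay between the control pools at 24 h, 20 of which were below both at 48 h, and the remaining 23 were below both control pools at both times. Of the 160 higher genes, 92 lay below both control pools at 24 h, and at 48 h 55 of these were above both, 18 were between them and 19 were still below both. A further 36 lay above both control pools at both times and 32 went from between to above. By distance to the mean of both control pools, 125 of the 208 lower genes and 65 of the 160 higher genes were nearer to the controls at 48 h than at 24 h. These orders describe the genes selected from the same APAP libraries and are no test. Selecting genes that were lower at 48 h favours high values at 24 h, and the reverse holds for the higher genes. The same shares over all evaluated genes were not counted.

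The heat shock response held the largest decreases among the named genes. Heat shock factor 1 binds arrays of the inverted pentamer nGAAn, and its targets are chaperones that refold or hold damaged protein. Of 17 chaperone genes in the list, 9 were at least 2-fold lower at 48 h and none was higher, the median log2 fold was -1.03 in the APAP pair and -0.06 for the same genes in the control pair (such control medians include members too low there to be evaluated), and all genes had a median of -0.01. Promoter windows of RefSeq (GRCm38.p6, from 250 bases before to 50 after the start) were searched on both strands for 3 units, spelled GAANNTTCNNGAA or TTCNNGAANNTTC, and for 2 units, GAANNTTC or TTCNNGAA, each of which lies within the longer motifs. Of the 18 listed symbols, 15 had a window, of which 4 (26.7%) held 3 units and 12 (80%) at least 2 units, against 0.662% and 17% of the windows of all 27025 genes. Windows of 132 lower genes held 3 units in 4 cases (3.03%), 3 of which were the chaperone genes Hsph1, Hspd1 and Hspe1, those of 110 higher genes in 1 (0.909%) and those of all 7218 evaluated genes with a window in 0.596%. For 2 units the shares lay close together, at 18.9% of lower, 13.6% of higher and 14.6% of evaluated genes. The list was made of chaperone genes, the class named above as targets of this factor, so that its shares are no test. Hspd1 and Hspe1 hold the same stretch, which is counted once for each gene. A match describes letters in this window and is not a measured binding site. The matches in the promoters of the genes that follow are shown, with the motif in capitals and, where matches overlap, their whole extent.
Hspa1a chr17:34972242-34972271, minus strand: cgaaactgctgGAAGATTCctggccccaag
Hspb1 chr5:135887791-135887820, plus strand: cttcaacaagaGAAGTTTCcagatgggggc
Hspb1 chr5:135887811-135887840, plus strand: agatgggggcaGAACCTTCctggccccgcc
Bag3 chr7:128523603-128523632, plus strand: ccaagttctctggatgggaccaGAAGTTTC
Hsph1 chr5:149636280-149636309, minus strand: tgctgcagaTTCTGGAAAGTTCtcctcagt
Hspe1 chr1:55088053-55088082, plus strand: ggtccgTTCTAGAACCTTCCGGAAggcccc
Chordc1 chr9:18292259-18292288, plus strand: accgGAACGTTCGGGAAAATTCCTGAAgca

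Hspa1a, an inducible HSP70 gene (chr17:34969190-34972156), held 285 normalised reads 24 h after APAP and 15 at 48 h, against 4.55 and 11.8 in the control pools. It was 19.0 times lower at 48 h (95% interval 11.5 to 33.7), the largest of these decreases. Its neighbour Hspa1b (chr17:34956436-34959238), whose 30-base window at chr17:34959324-34959353 has the same letters as that of Hspa1a, held 485 and 35.6 normalised reads in the APAP pools and 38.7 and 34.3 in the control pools, a level 13.6 times lower (9.79 to 19.4). The last 300 bases of both transcripts did not match each other at 95% identity over 100 bases, so that their reads come from distinguishable ends. At 48 h Hspa1b lay between the control pools, whereas Hspa1a was still slightly above both.

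Hspb1, the small heat shock protein HSP27 that holds unfolded proteins and binds actin, was 7.09 times lower (5.85 to 8.66), at 791 and 112 normalised reads in the APAP pools against 233 and 159 in the control pools. Its value at 48 h was therefore below both control pools. Its processed copy Hsp25-ps1, which shares 98.2% of 169 end bases with it, was 5.49 times lower, and their reads may have been exchanged. Dnajb1, the HSP40 partner of HSP70, held 500 and 124 normalised reads and was 4.04 times lower (3.34 to 4.92), while the control pools held 84.1 and 110. Its promoter window held no match. Bag3, the HSP70 co-chaperone of selective autophagy, went with 228 and 75.0 normalised reads from above to below the control pools (127 and 122). Hsp90aa1, Hsph1, Hspd1 and Hspe1, which encode the inducible HSP90, an HSP110 exchange factor and the mitochondrial chaperonin pair, were 2.56, 2.45, 2.06 and 2.04 times lower. Hspd1 and Hspe1 are read in opposite directions from the same stretch, so that the Hspe1 window above is also the one of Hspd1 on the minus strand. Not every gene with an array was past 2-fold: Chordc1, an HSP90 co-chaperone with the longest run of units, had a value 1.23 times lower with an interval of 0.922 to 1.65. Hspa8, the constitutive HSC70, was 1.17 times lower (1.11 to 1.24). Bag3, Hsp90aa1, Hsph1, Hspd1, Hspe1, Chordc1 and Hspa8 were singled out after their values were seen.

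Some immediate early and stress-induced transcription factors were at least 2-fold lower at 48 h. AP-1 dimers of the FOS, JUN, ATF and MAF families switch on within minutes of an insult and are usually transient. Of 20 evaluated immediate early and AP-1 genes, among them some that encode no such factor (the phosphatase gene Dusp1, the RNA-binding protein gene Zfp36, Btg2 and Ier3), 6 were at least 2-fold lower at 48 h and none higher. The median log2 fold was -0.63, against -0.13 in the control pair over the 13 evaluated in both pairs. Atf3 held 94.5 normalised reads at 24 h and 22.5 at 48 h, 4.20 times lower (2.68 to 6.83), against 5.68 and 9.65 in the control pools. Jun went from 168 to 49.7 normalised reads, 3.38 times lower (2.48 to 4.66), with 38.7 and 35.4 in the control pools. Fosl1, encoding FRA-1, went from 51.1 to 10.3 normalised reads, 4.96 times lower (2.58 to 10.5), and had 3 reads and 0 reads in the control libraries. Fos was 3.26 times lower (1.69 to 6.78) on 43 and 12 reads, and Maff and Egr1, named after their values were seen, were 2.94 and 2.01 times lower. At 48 h these 6 factors were all still above both control pools.

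Targets of mechanical and serum signalling were partly lower. Among 14 evaluated targets of serum response factor and YAP/TEAD, 4 were at least 2-fold lower and none higher, with a median log2 fold of -0.23 against -0.10 in the control pair over the 10 evaluated in both pairs. Thbs1, thrombospondin 1, was 4.77 times lower (2.55 to 9.72), Cyr61 2.49 times (1.58 to 4.03) and Ctgf 2.14 times (1.53 to 3.05), and Actb, the most abundant member, 1.11 times. Outside that list, Slc2a3, a high-affinity glucose transporter, was 5.94 times lower (3.29 to 11.6) with 72.4 and 12.2 normalised reads.

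Transcripts of the unfolded protein and integrated stress responses lay mostly below 1 in the APAP pair. Of 20 evaluated genes 18 had a fold below 1 in the APAP pair, 3 of them at least 2-fold, with a median log2 fold of -0.69, but the control pair had a median of -0.37 for the same genes and of -0.17 for the 17 evaluated in both pairs. Ddit3, the transcription factor CHOP, held 138 and 34.7 normalised reads in the APAP pools and 23.9 and 18.2 in the control pools, 3.98 times lower (2.77 to 5.85) as against 1.31 times in controls. Ppp1r15a, encoding the GADD34 subunit that restores translation, was 3.91 times lower (2.38 to 6.71) and 1.12 times lower in controls. Derl3, which draws misfolded proteins out of the endoplasmic reticulum and is not in the list, went from 241 to 23.4 normalised reads after APAP and from 65.9 to 5.36 in controls. It was thus 10.3 times lower (6.82 to 16.2) in the APAP pair and 12.3 times lower in the control pair. Calr and Pdia6, abundant chaperones of the endoplasmic reticulum, were 1.77 and 1.98 times lower in the APAP pair, with control folds of 0.585 and 0.517.

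**Figure D2:**
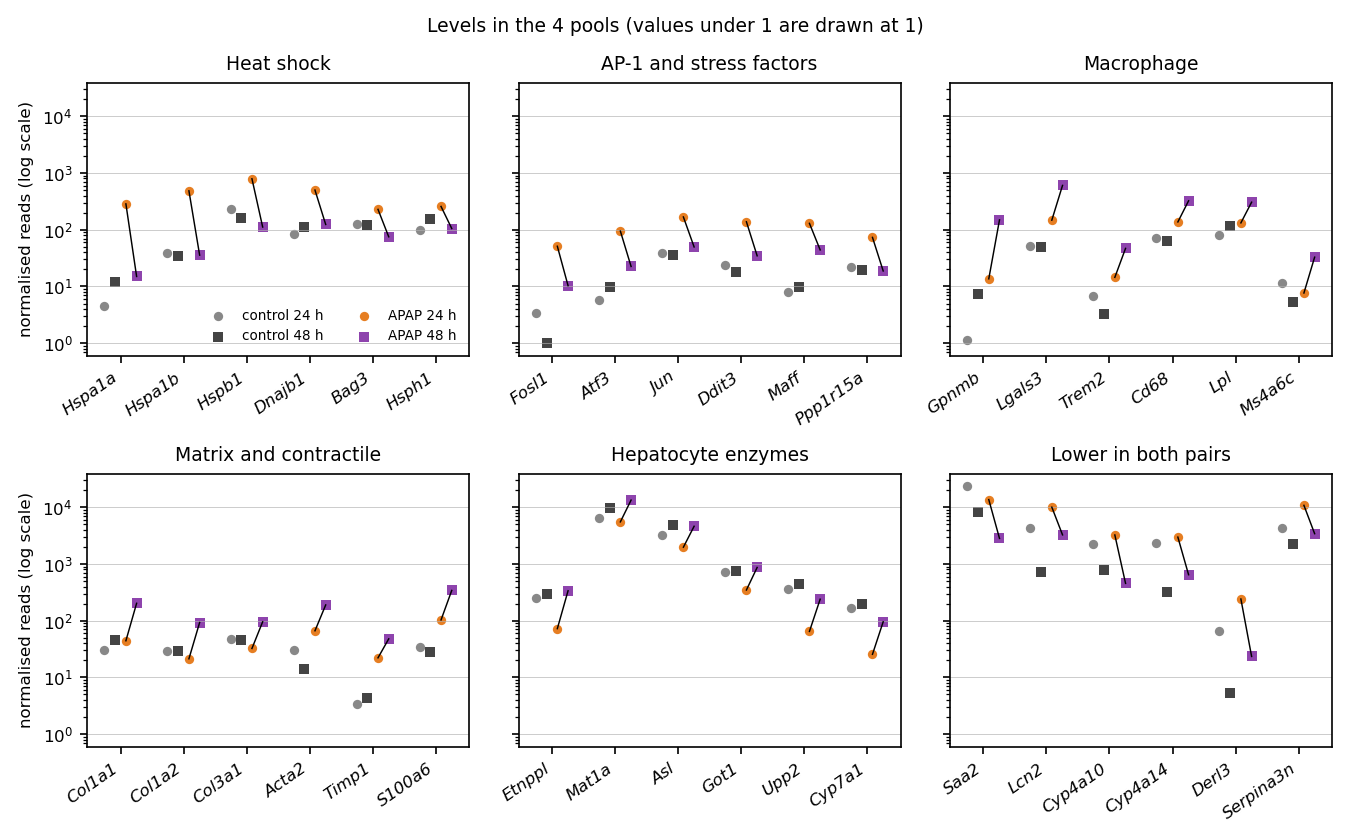
Normalised reads (vertical, log scale, values under 1 drawn at 1) of 36 genes in 6 groups, with circles for 24 h, squares for 48 h, grey for the control pools and colour for the APAP pools, and a line joining both APAP pools. All 36 were picked for display from genes past 2-fold in the APAP pair and do not stand for their lists. The heat shock and AP-1 genes shown go down towards or past the controls. The macrophage and matrix genes shown go up, Col1a2 and Col3a1 from below both control pools, and the genes of the last group go down in controls too.

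Antioxidant and metal-binding transcripts showed smaller differences than chaperones. Srxn1, a sulfiredoxin that repairs oxidised peroxiredoxins, was the 1 of 24 evaluated NRF2 targets past 2-fold, at 3.11 times lower (2.71 to 3.58) with 769 and 248 normalised reads and 171 and 135 in the control pools. The remaining 23 stayed within 2-fold, with a median log2 fold of -0.29 over the list against -0.13 in controls. Mt1, a zinc- and metal-binding metallothionein, held 13030 and 6027 normalised reads, 2.16 times lower (2.10 to 2.23), and its paralog Mt2 5660 and 2988, 1.89 times lower. With 705 and 732 normalised reads of Mt1 and 165 and 378 of Mt2 in the control pools, both remained far above controls at 48 h. Among 14 targets of p53, Plk3 (2.81 times lower) and Gdf15 (2.16 times lower) were past 2-fold downward and Phlda3 upward (2.51-fold), while Cdkn1a, the cell cycle inhibitor p21, was 1.63 times lower (1.38 to 1.92) and still at 209 normalised reads against 36.4 and 54.7. Proteasome subunits lay below 1 in 30 of 31 cases and ribosome biogenesis genes in 18 of 22, with medians of -0.38 and -0.35 (-0.14 and -0.15 in controls), yet none was past 2-fold. Ribosomal proteins had a median of 0.04.

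The acute-phase list was divided. Of 24 evaluated acute-phase genes, which besides plasma proteins include Socs3 and the membrane protein gene Steap4, 5 were at least 2-fold lower in the APAP pair (4 genes of plasma proteins and Socs3) and 4 of 23 in the control pair, none was higher in the APAP pair, and medians were -0.41 and -0.23. Saa2, a serum amyloid A (chr7:46751790-46754313), held 13632 and 2821 normalised reads in the APAP pools, 4.83 times lower (4.65 to 5.03), and 23343 and 8404 in the control pools, 2.78 times lower. Its levels after APAP were never above both controls. Saa1 was 3.03 times lower (2.93 to 3.13) after APAP and 1.77 times lower in controls. Lcn2, the siderophore-binding lipocalin 2, went from 10034 to 3257 normalised reads after APAP (3.08 times lower, 2.97 to 3.20) and from 4218 to 722 in controls (5.84 times lower). Serpina3n went from 10796 to 3419 (3.16 times lower) after APAP and was 1.96 times lower in controls. Hpx, the haem-binding hemopexin gene and the most abundant member over the 4 pools, was instead 1.28-fold higher, and Hp, encoding the haemoglobin-binding haptoglobin and the most abundant in both APAP pools, was 1.27-fold higher after APAP and 2.02 times lower in controls. Socs3, the feedback inhibitor of IL-6 signalling, named after its value was seen, was 2.56 times lower with 118 and 45.9 normalised reads.

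A minority of fasting-type lipid genes was at least 2-fold lower at 48 h. Of 28 evaluated genes of fatty acid oxidation and PPARα, the receptor that senses fatty acids during fasting, 7 were at least 2-fold lower and none higher, with a median log2 fold of -0.37 against 0.08 in controls. Cyp4a10 (chr4:115518264-115533649), a fatty acid omega-hydroxylase, went from 3242 to 455 normalised reads, 7.13 times lower (6.48 to 7.85), and from 2237 to 784 in controls, 2.85 times lower. Cyp4a14 was 4.60 times lower (4.24 to 5.0) after APAP and 7.19 times lower in controls. Angptl4, the lipoprotein lipase inhibitor, Cidec and Plin2, both coats of lipid droplets, were 2.70, 2.82 and 2.34 times lower, whereas their control folds were 1.55, 1.45 and 1.16. Cidec and Plin2 were named after their values were seen. Both Cyp4a genes were thus lower in controls too, and the other 3 were not. Lipogenesis held no gene past 2-fold in the APAP pair: Scd1, the stearoyl-CoA desaturase, stayed at 2680 and 2913 normalised reads while the controls went from 17875 to 43721. Of 21 genes of cholesterol synthesis, 17 lay below 1, 1 of them, Cyp51, at least 2-fold (2.03 times lower), and the median was -0.40 against -0.11 in controls.

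Among genes of the male-pattern growth hormone response, mainly Mup entries were lower at 48 h. Major urinary proteins (Mup) are pheromone carriers that male mouse liver secretes in bulk. Of 41 Mup entries 24 were evaluated, and 19 were at least 2-fold lower and none higher, with a median log2 fold of -1.26 in the APAP pair and 0.09 in the control pair. Together they took 7.69% of all reads 24 h after APAP and 3.70% at 48 h, against 6.36% and 6.51% in the control pools. Mup11 (chr4:60658466-60662411) went from 25694 to 7550 normalised reads, 3.40 times lower (3.32 to 3.49), with 19791 and 21480 in controls. Many Mup transcripts share identical ends, so that the entries cannot be counted as independent genes, and without them 189 lower genes remained. In the wider list of male-biased genes, 8 of 26 were at least 2-fold lower, 7 of these Mup entries and 1 the arachidonic acid hydroxylase Cyp4a12a (376 and 165 normalised reads, 2.28 times lower, with 1028 and 1401 in controls, named after its value was seen). Serpina1e, an α1-antitrypsin and the most abundant member in the APAP pools, was 1.16 times lower.

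Among cytochrome P450 genes, the outcome differed by gene. Of 34 evaluated in the P450 list, which does not hold all of them, 4 were at least 2-fold lower (Cyp4a10, Cyp4a14, Cyp4a12a and Cyp3a11) and 1 higher. Cyp3a11, a broad-range drug oxidase, was at 463 and 176 normalised reads, 2.63 times lower (2.22 to 3.12), with 2518 and 2063 in controls, and thus lay farther below the control pools at 48 h than at 24 h. Its end is shared in part with Cyp3a41a and Cyp3a41b. Cyp2e1, which oxidises APAP itself, was 1.62 times lower (1.55 to 1.70), from 4891 to 3012 normalised reads with 7856 and 8164 in controls. A transcript end of Cyp2e1 matches 47 other genes in part. Cyp39a1, an oxysterol hydroxylase, was 2.39-fold higher (1.89 to 3.03). Cyp7a1, the rate-limiting enzyme of bile acid synthesis, held 25.6 and 95.6 normalised reads and was 3.74-fold higher (2.47 to 5.83), although the control pools held 167 and 200. It was the 1 of 20 bile acid genes past 2-fold. Cyp4a31 and Cyp51, counted in the lipid and cholesterol lists, were 3.60 and 2.03 times lower, and Cyp4a12b, in no list and named after its value was seen, 3.03 times. The end of Cyp4a31 is shared with Cyp4a32 and in part with Cyp4a10.

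Some enzymes of amino acid metabolism were at least 2-fold higher at 48 h. Periportal hepatocytes, the cells nearest the incoming blood, carry out most of the urea cycle and of amino acid breakdown. Of 34 evaluated genes of these pathways 6 were at least 2-fold higher and none lower, and 30 had a fold above 1, with a median log2 fold of 0.49 in the APAP pair and 0.25 in the control pair. Mat1a, the hepatic synthase of S-adenosylmethionine, held 5519 and 13350 normalised reads in the APAP pools and 6558 and 9730 in the control pools, 2.42-fold higher (2.35 to 2.49) as against 1.48-fold in controls. Got1, the cytosolic aspartate aminotransferase, went from 348 to 867 normalised reads (2.50-fold, 2.22 to 2.81) with a control fold of 1.02. Asl and Ass1, successive enzymes of the urea cycle, were 2.34-fold and 2.05-fold higher, with 1.5 and 1.37 in controls, and Ass1 shares 99.7% of its end with Gm5424. Cth, which makes cysteine from cystathionine, was 2.37-fold higher, with 1.27 in controls. Csad, on the route from cysteine to taurine but not in the list, was 2.68-fold higher (2.41 to 2.98) after APAP and 1.58 times lower in controls. Mat1a, Got1 and Csad were above both control pools at 48 h.

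Etnppl, a phosphoethanolamine lyase of periportal cells (chr3:130617448-130637521), held 72.4 normalised reads at 24 h and 337 at 48 h, with 249 and 299 in controls. It was 4.65-fold higher (3.66 to 5.96), going from below to above both control pools. Upp2, a uridine phosphorylase in no list, was 3.69-fold higher (2.85 to 4.84) and Hsd17b6, a steroid dehydrogenase, 3.60-fold (2.78 to 4.70). The end of Hsd17b6 is shared in part with 6 genes, Rdh1 and Rdh16f1 among them. Of 18 periportal markers 4 were past 2-fold upward and none downward, with a median of 0.51 against 0.17 in controls. Of 18 pericentral markers 2 were (Cyp7a1 and Rgn, regucalcin, at 2.08-fold), with a median of 0.01 against 0.15. The summed level of the 22 pericentral markers stayed at 11692 and 10813 normalised reads in the APAP pools, against 32209 and 33867 in the control pools. The periportal sum, mostly Alb, went from 245288 to 290765, from below both control pools (279198 and 291287) to between them. Inmt, a methyltransferase in no list, was 2.51-fold higher yet at 457 and 1146 normalised reads remained far below the controls (3688 and 5456). Ttr, the plasma carrier transthyretin, named after its value was seen, was 2.04-fold higher, with 35422 and 72150 normalised reads in the APAP pools and 63184 and 68016 in controls.

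Iron and hepatokine genes went in both directions. Of 15 evaluated hepatokines, 2 were at least 2-fold higher and 4 lower. Hamp2, a hepcidin paralog, was 2.70-fold higher (2.34 to 3.12) after APAP and 3.19-fold higher in controls, while Hamp, which encodes the iron hormone hepcidin, was 1.40-fold higher after APAP (13118 and 18319 normalised reads) and 0.933-fold in controls. Igfbp1 was 2.02-fold higher at 760 and 1531 normalised reads, with 363 and 259 in controls, and was named after its value was seen. Igfbp2, a binding protein of the same family, was 2.55 times lower (2.35 to 2.77).

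**Figure D3:**
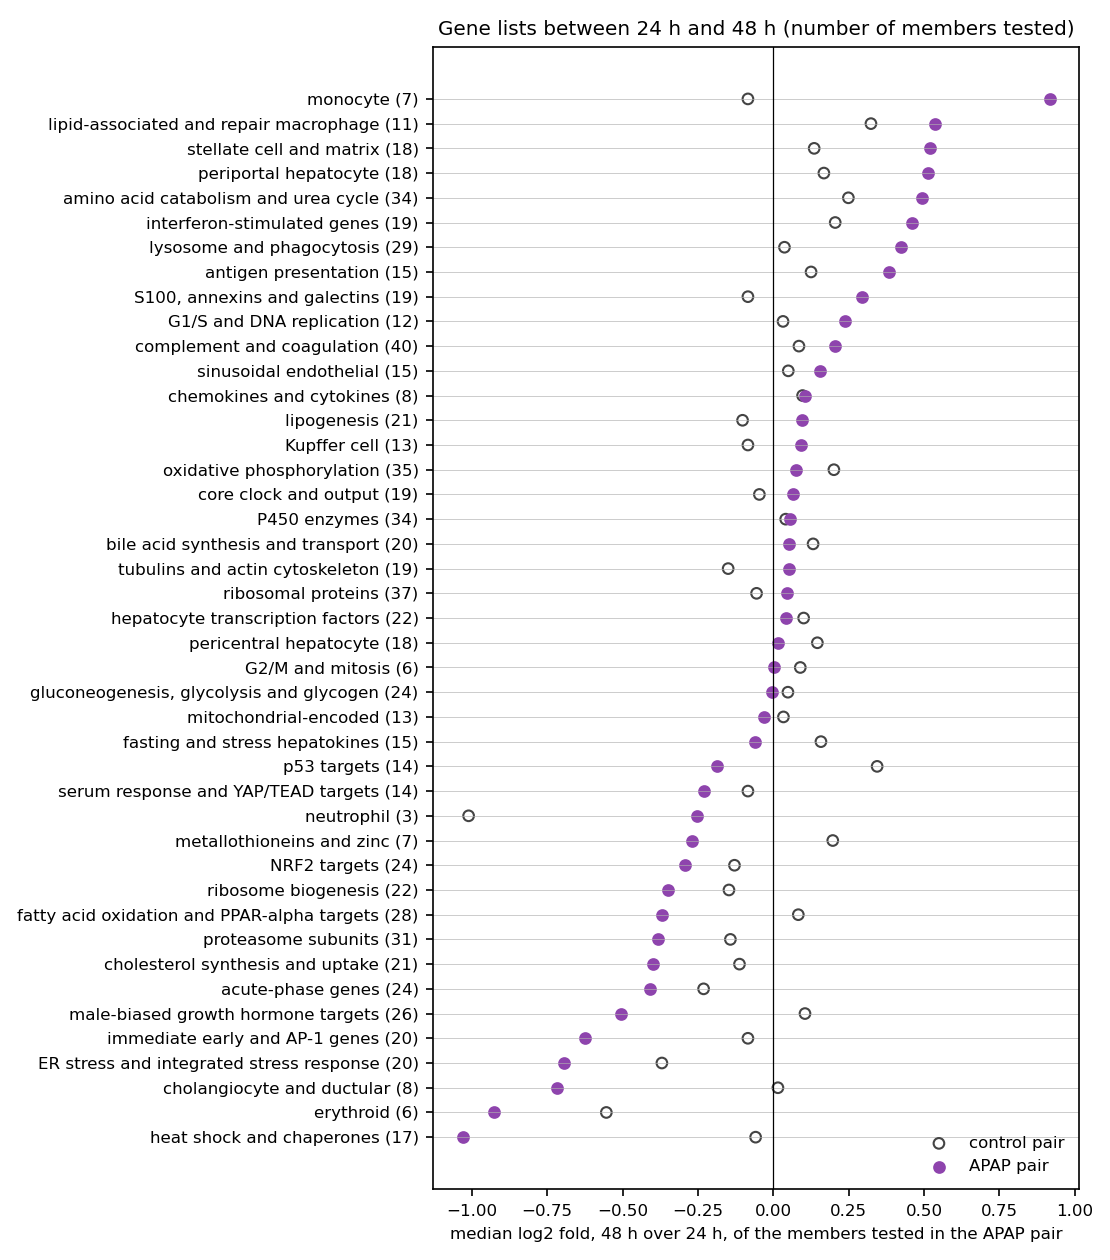
Median log2 fold of 48 h over 24 h (horizontal) for each gene list with at least 3 evaluated members, with filled circles for the APAP pair and open circles for the same genes in the control pair, and the number of evaluated members in brackets. The chaperone list has the lowest median (-1.03) and the monocyte list the highest (0.92, from 7 genes), and for the erythroid list and the stress list of the endoplasmic reticulum the control pair lies on the same side of 0. Control medians include members too low to be evaluated there, 4 of the 7 monocyte genes among them.

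Some macrophage and monocyte transcripts were at least 2-fold higher at 48 h. Monocytes enter the necrotic liver and mature into lipid-laden phagocytes, for which TREM2 and GPNMB are defining surface proteins. Gpnmb (chr6:49036546-49070929) held 13.6 normalised reads 24 h and 149 reads 48 h after APAP. It was 10.9-fold higher (6.53 to 19.6), the only gene of the APAP pair more than 5-fold higher. The control libraries had 1 and 7 reads of it, too few for a fold. Lgals3, galectin-3 of activated macrophages, went from 147 to 604 normalised reads, 4.10-fold higher (3.46 to 4.88), with 51.2 and 49.3 in controls. Trem2 went from 14.5 to 46.9 normalised reads, 3.24-fold higher (1.84 to 5.99), with 6 and 3 reads in the control libraries. Lpl, the lipoprotein lipase, was 2.32-fold higher (1.91 to 2.82). These were the 4 of 11 evaluated genes of that macrophage list past 2-fold, and Fabp5, its most abundant member over the 4 pools but not in the APAP pools, was at 49.4 and 84.4 normalised reads against 384 and 837 in controls. The list had a median of 0.54 (0.32 in controls).

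Monocyte genes had the highest median of the lists with at least 3 evaluated members, 0.92 over 7 genes, and 3 were past 2-fold. Only 3 of the 7 (Plac8, Fn1 and Lyz2) were evaluated in the control pair too, with a control median of 0.18, and none of these was past 2-fold in the APAP pair. Chil3, a secreted chitinase-like protein, went from 106 to 227 normalised reads (2.15-fold, 1.72 to 2.69) with 9.09 and 5.36 in controls, and its end is shared with Chil4. S100a4 went from 46.8 to 109 (2.32-fold) and Ms4a6c from 7.67 to 32.8 (4.28-fold, 2.02 to 10.1). Lyz2, lysozyme of myeloid cells, was 1.89-fold higher with 327 and 618 normalised reads, and Fn1, the most abundant gene of the list but also made by hepatocytes, was 1.51 times lower. The monocyte chemokine gene Ccl2 was 2.31-fold higher (1.47 to 3.70) with 25.6 and 59.1 normalised reads. Of the 8 evaluated chemokine and cytokine genes it was the 1 past 2-fold upward, and Cxcl14 was the 1 downward (2.04 times lower). In that list 4 genes lay above 1 and 4 below, with a median of 0.11 against 0.10 in controls. Of 29 lysosomal and phagocytic genes 26 had a fold above 1 and 3 were past 2-fold, Cd68 (2.36-fold, 137 and 323 normalised reads), Ctss, the cathepsin S that trims antigen-presenting molecules (2.22-fold), and the Fc receptor Fcgr1 (2.41-fold), with a median of 0.42 against 0.04. Aif1, a macrophage actin-binding protein in no list, was 2.61-fold higher in the APAP pair and 2.12 times lower in controls.

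Markers of resident macrophages and of other leukocytes were also counted. None of 13 Kupffer cell markers was past 2-fold, 8 had a fold above 1 and 5 below, and the median was 0.09 against -0.08. C6, a complement component and the most abundant of them over the 4 pools, had a fold of 0.991 (0.864 to 1.14), and the scavenger receptor Marco, named after its value was seen, was 1.32 times lower (1.08 to 1.61). Vsig4, a complement receptor of Kupffer cells, was 1.90-fold higher (62.2 and 118 normalised reads, 79.6 and 75.1 in controls) and the lectin Clec4f 1.69-fold (163 and 276, 305 and 280 in controls). Of the 14 neutrophil markers with an entry 3 were evaluated, S100a8 at 118 and 99.4 normalised reads, S100a9 at 63.9 and 35.6, and Hp, which hepatocytes make. Ngp, Camp, Ltf and Elane, the granule genes that define neutrophil precursors, had at most 3 reads in any library. No lymphocyte marker reached 20 normalised reads on average in the APAP pair, and their sum was 69.8 and 81.6 normalised reads against 190 and 212 in controls. Interferon-stimulated genes lay above 1 in 16 of 19 cases with a median of 0.46 (0.21 in controls). By size factors none was past 2-fold, although this depended on the scaling. Gbp7 (1.995-fold) and Oas1a (1.95-fold) of this list reached 2.09-fold and 2.04-fold once reads were scaled by library totals.

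Some matrix and contractile genes were at least 2-fold higher at 48 h. Stellate cells lie beside the sinusoids, store vitamin A and, once activated, make fibrillar collagen and α-smooth muscle actin. Of 18 evaluated stellate and matrix genes 5 were at least 2-fold higher and none lower, with a median of 0.52 and 0.14 in controls. Col1a1 (chr11:94936224-94953042) held 44.3 and 203 normalised reads in the APAP pools and 30.7 and 45.0 in the control pools, 4.57-fold higher (3.36 to 6.32). Col1a2, the other chain of type I collagen, went from 21.3 to 92.8 normalised reads, 4.36-fold higher (2.79 to 7.06), with 29.6 and 28.9 in controls. Col3a1 went from 32.4 to 95.6 (2.95-fold, 2.02 to 4.41) with 46.6 and 46.1. For all 3 collagen genes the APAP pool at 24 h lay at or below the higher control pool and the pool at 48 h above both. Acta2 went from 66.4 to 189 normalised reads (2.85-fold, 2.18 to 3.75), and Timp1, the inhibitor of matrix proteases, from 22.1 to 47.8 (2.16-fold), named after its value was seen. Sparc, a collagen-binding glycoprotein and the most abundant member, was 1.32-fold higher.

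Calcium-binding S100 proteins, annexins and galectins, markers of both immune and repairing epithelial cells, were past 2-fold upward in 5 of 19 cases and downward in 1. S100a6 went from 103 to 341 normalised reads (3.31-fold, 2.69 to 4.10) with 34.1 and 27.9 in controls, and Anxa3 from 20.4 to 76.9 (3.76-fold, 2.36 to 6.2) with 29.6 and 17.2. Lgals1 was 2.47-fold higher. The intermediate filament Vim, of mesenchymal and myeloid cells, was 2.58-fold higher (2.15 to 3.11) with 141 and 365 normalised reads. Of the tubulins, which build microtubules, Tubb2a, Tubb4b and Tubb6 were 2.12, 2.33 and 2.25 times lower, and Tubb4b was also 1.93 times lower in controls. The other evaluated tubulins of the list stayed within 2-fold, such as Tuba1a (1.30-fold) and Tubb5 (0.973-fold). Of 19 evaluated tubulin and actin cytoskeleton genes, Vim included, 12 lay above 1 and 7 below, with a median of 0.05 against -0.15 in controls. Tubb6 held 196 and 87.2 normalised reads, above the 51.2 and 46.1 of the control pools at both times. Of 8 evaluated cholangiocyte and ductular genes 2 were lower and 1 higher. Sprr1a, a cornified envelope protein induced in stressed epithelium, was 3.50 times lower (2.89 to 4.26) at 439 and 126 normalised reads, and Sox9, the ductal transcription factor, 1.98 times lower (1.62 to 2.43), at 261 and 132 against 65.9 and 74.0 in controls.

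Proliferation genes were near the detection limit. Of 12 evaluated G1/S and replication genes 9 had a fold above 1 and 1 was past 2-fold, the helicase subunit Mcm6 at 19.6 and 51.6 normalised reads (2.63-fold, 1.59 to 4.49). Thymidine kinase Tk1 was 1.57-fold higher (1.17 to 2.11). Of 36 mitotic genes 6 were evaluated and none was past 2-fold. Mki67, the proliferation antigen, named after its value was seen, had 1 read at 24 h after APAP and 12 at 48 h, with 1 and 4 reads in controls, and was not evaluated. The histone genes Hist1h2ao and Hist1h2ap were 3.39-fold and 4.21-fold higher (2.10 and 1.82 in controls), but their ends are identical to those of other histone genes. The clock gene Per3 was the 1 of 19 clock genes past 2-fold, at 16.2 and 44.1 normalised reads against 77.3 and 48.2 in controls. Its entry holds only an identifier joined with that of another gene, so that these reads cannot be assigned to Per3 alone.

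Some of the lower and higher genes also moved between the control pools. Of the 208 lower genes 161 were evaluated in both pairs, and 14 of these (8.70%) were at least 2-fold lower in controls too, against 0.958% of all 9495 genes evaluated in both. These 14 are 15.4% of the genes lower in controls. Of the 160 higher genes 111 were evaluated in both, and 7 (6.31%, 7.61% of the genes higher in controls) were higher in controls, against 0.969%. Named genes at least 2-fold lower in both pairs were Derl3, Cyp4a10, Cyp4a14, Saa2, Lcn2, Hsp25-ps1 and Nucb2, the nesfatin precursor (3.89 and 3.11 times lower). Named genes higher in both were Hamp2, Slc16a5, a monocarboxylate transporter (3.60-fold and 2.99-fold), Frat1, Hist1h2ao and the protease inhibitor Slpi (2.75-fold and 2.20-fold). In the opposite direction, 2 of the 111 higher genes (1.80%) were lower in controls, against 0.958% of all genes, and 4 of the 161 lower genes (2.48%) were higher, against 0.969%. The pairs share no library but share the size factors.

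**Figure D4:**
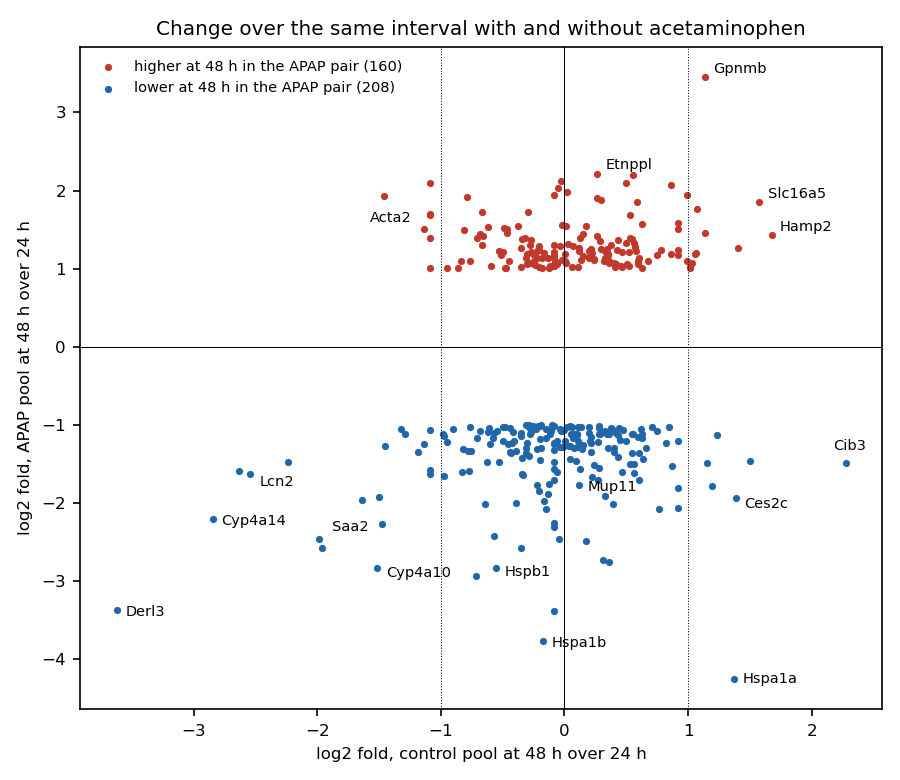
Log2 fold of 48 h over 24 h in the control pair (horizontal) against the APAP pair (vertical) for the 160 genes at least 2-fold higher (red) and 208 at least 2-fold lower (blue) after APAP, 1 point per gene, with dotted lines at 2-fold in controls. Control folds of genes with few reads rest on the floor of 3 reads. Most genes lie between the dotted lines, and Derl3, Cyp4a14 and Lcn2 lie to their left.

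Red cell and pancreatic transcripts differed between libraries. All 6 evaluated erythroid markers of 8 with an entry had a fold below 1 in the APAP pair, with a median log2 fold of -0.93, and -0.55 in controls. Their sum was 14278 and 7468 normalised reads after APAP at 24 h and 48 h, and 20348 and 13918 after vehicle. Hbb-bs, the most abundant, was 1.97 times lower after APAP. Of the pancreatic acinar markers, Ctrb1 had 22 reads in the control library at 48 h and 0 in the other 3, and 11 of 15 markers were at 0 in both APAP libraries. The evaluated acinar marker Cela1 had 64 reads in each APAP library and 82 and 97 in the control libraries, and the list summed to 56.2 and 66.6 normalised reads after APAP and 95.5 and 208 after vehicle. What part these cells had in the results above was not tested.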

How the data were processed

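Hepatic RNA of 4 pools was measured by MACE, a tag-based method that reads the 3′ end of each polyadenylated transcript. Before deposit, the authors removed duplicates by unique molecular identifiers, trimmed reads with cutadapt, clipped poly(A)-tails, mapped them on mm10 and counted them per gene with HTSeq, and the deposited counts are not normalised. Versions and strand handling were not given in the sources used here. The same deposited table also holds values scaled to library totals, log2 ratios, p-values and false discovery rates of the authors, which were not used. The authors name DESeq2, which has no residual degrees of freedom here.

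Libraries were grouped by their labels. In all, 2 comparisons of 48 h over 24 h were made, within APAP and within control, by folds of counts divided by median-of-ratios size factors, with a floor of 3 reads (0.526 and 0.608 RPM in the APAP libraries at 24 h and 48 h, 0.617 and 0.578 in the control libraries), a minimum mean of 20 normalised reads and a threshold of 2-fold. Intervals are 95% exact (Clopper-Pearson). Calculations ran in Python 3.11.15 with numpy 2.4.6, pandas 2.3.3 and scipy 1.17.1, plots in matplotlib 3.10.9, TMM factors in edgeR 4.0.16 under R 4.3.3, and the procedure was tested on simulated data.

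Positions were taken from GENCODE M21 (GRCm38), which 24536 of 27027 entries matched by identifier. Ends shared between genes were found with blastn 2.17.0 in the last 300 bases of transcripts (at least 95% identity over at least 100 bases), and such an end was found for 49 of the 221 named genes. Entries that join several identifiers, such as those of Per3, Ctss, S100a4, Slpi and Upp2, were not searched. Not each of the 49 is pointed out above. Promoter windows were matched by symbol to RefSeq.

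Members and gene lists (45) were chosen with earlier results of these data known. Named genes were the 15 higher and 15 lower whose interval bound lay farthest from 1, the 4 members of each list with the largest fold and its most abundant member, and up to 5 genes past 2-fold in both pairs for each combination of directions. Genes outside this rule were named after their values were seen, or as the partner of a shared end. Alternatives were TMM, library totals, size factors over each pair, other floors, filters and thresholds, distance to the control pool of equal time and, added after seeing the data, division by the fold of the control pair. Listed symbols without an entry (such as Il6, Hspb8 and Ly6g) were not analysed here. Some named genes are not reported here.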

Additional observations from a re-analysis of the deposited data

Results flagged for a closer look

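In 6 genes the APAP pair and the control pair were past 2-fold in opposite directions, and with 1 library per group the difference was not tested. Cib3, a calcium- and integrin-binding protein, had a log2 fold of -1.48 in the APAP pair (77 and 25 reads) and 2.27 in the control pair (38 and 195 reads). Ces2c, a carboxylesterase, had -1.93 (42 and 10 reads) and 1.39 (76 and 211 reads), and its end is shared with Ces2d-ps. Rarres1, a retinoic acid responsive gene, had -1.49 (179 and 58 reads) and 1.15 (146 and 344 reads). Gm2788 had -1.77 (64 and 17 reads) and 1.19 (52 and 126 reads), and its end matches several other transcripts. All 4 lay below both control pools at 48 h. Acta2 had 1.51 (78 and 202 reads) and -1.14 (27 and 13 reads), and Aif1 1.39 (32 and 76 reads) and -1.08 (42 and 21 reads), and both lay above both control pools at 48 h.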

How the results depend on the processing

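No paired analysis was possible because each group has 1 library, and no replicate could be left out for the same reason. In the APAP pair (160 higher, 208 lower), library totals gave 243 higher, a minimum mean of 10 normalised reads 352 and 389, of 100 reads 35 and 70, and no filter 966 and 813. A threshold of 1.5-fold gave 663 and 771, of 3-fold 24 and 52 and of 5-fold 1 and 15, a bound nearer 1 of at least 2-fold 31 and 71, and division by the fold of the control pair (added after seeing the data) 97 and 136. In the control pair (124 higher, 110 lower), minimum means of 10 and 100 gave 308 and 262, and 21 and 12, no filter 685 and 756, 1.5-fold 585 and 579, 3-fold 19 and 19, 5-fold 3 and 6, and the bound 13 and 13. Other settings left these counts within 1.5 times. Without a filter the median log2 fold of all 27027 entries in the APAP pair was 0.14. Size factors over each pair alone give no common scale for the 65 higher and 125 lower genes nearer to the controls, and were not run for them. Of 1105 recomputed folds of named genes 43 moved beyond their counting interval, 32 of them with library totals. With library totals Cyp51, Cxcl14 and Trib3 fell short of 2-fold. In turn, Fcgr4 and Gbp7 became at least 2-fold higher with TMM and with library totals, and Oas1a with library totals. With size factors over the pair alone Hba-a2, Hbb-bs, Pdia6 and Sox9 became at least 2-fold lower. Of 351 list medians 10 moved. At a minimum mean of 100 those of acute-phase, hepatokine, pericentral and metallothionein genes became -0.27, -0.39, -0.18 and -0.73, and without a filter those of cholangiocyte, erythroid and neutrophil markers 0.14, -0.68 and 0.14. Library totals gave -0.34 for acute-phase and 0.04 for mitochondrial genes, and size factors over the pair -0.06 for the latter. The cholangiocyte, neutrophil, pericentral and mitochondrial medians changed sign, as did some others near 0. Low counts limit the precision of folds such as that of Trem2, and the spread between mice is not known.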
